A study of Arabidopsis thaliana with 30 samples.

Results

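The heat shock protein and heat shock factor genes of Arabidopsis thaliana were described in shoots and roots under changed nitrogen supply and changed AtNIGT1.2 activity. Members were the probe sets with a single locus whose target description in the deposited tables contains "heat shock" or "heat-shock". This gave 97 loci of the 21227 that the tables measure with a single-locus probe set. Each locus had 1 such probe set, and 5 further matches were left out because their probe sets carry several loci or none. By role, the members comprised 19 heat shock factors, 15 small heat shock proteins, 6 Hsp20-like proteins, 10 HSP70 and 6 HSP90 chaperones, 2 HSP100 chaperones, 3 Clp-related SMXL genes, and 22 DnaJ or GrpE co-chaperones. The remaining 14 matched through the wording of an old description only.

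The series asked which genes AtNIGT1 proteins act on, using Affymetrix 3' arrays of total RNA from 10-day-old seedlings, with shoots and roots hybridised separately and 3 arrays per group. Wild-type Col-0 seedlings were moved at day 7 to plates with 5 mM NH4NO3 or without nitrogen for 3 days, giving a nitrogen-sufficient and a starved wild-type group. The AtNIGT1.2 overexpressor was starved in the same way, so it has no nitrogen-sufficient group. The inducible AtNIGT1.2-VP line stayed on 5 mM NH4NO3 and was moved at day 9, for 24 h, to plates with or without b-estradiole, labelled as 10 mM, which gives the induced and mock groups. The promoters, the number of independent lines and the meaning of VP are not given in the sources used here, and no wild-type group received b-estradiole. The comparisons in each tissue were starved minus sufficient wild type, starved overexpressor minus starved wild type, induced minus mock AtNIGT1.2-VP, and the uninduced AtNIGT1.2-VP line minus sufficient wild type.

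Heat shock proteins are molecular chaperones that keep other proteins from aggregating, help them fold and carry them to the organelles. HSP70 works with DnaJ (HSP40) and GrpE partners, HSP90 matures signalling proteins, HSP100 pulls aggregated proteins apart, and small heat shock proteins hold unfolded proteins in a refoldable state. Heat shock factors are the transcription factors that bind heat shock elements. In plants the class A1 factors start the heat response, HSFA2 prolongs it, and class B factors mostly repress. Many members are expressed without heat and differ in the compartment they serve (cytosol, plastid, mitochondrion or endoplasmic reticulum).

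The AtNIGT1.2 transcript (AT1G68670) followed the labels. It was higher in the overexpressor than in starved wild type by 6.62 (log2) in shoots and 5.86 in roots, and higher after induction by 2.94 and 4.12. Tissue identity also followed the labels, as the shoot markers PSAD-2 and RCA lay between the 99.5th and the 100.0th percentile of all probe sets in shoots and between the 48.5th and the 73.0th in roots. Arrays of a group correlated at 0.989 to 0.996 in shoots and 0.993 to 0.998 in roots across the tested probe sets. Levels below are RMA log2 values, which have no common scale between probe sets or between the separately normalised tissues, so each probe set was compared only with itself within a tissue. A lower level in bulk tissue cannot separate fewer cells of a type from less RNA per cell.

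A probe set was tested where its mean level reached the 30th percentile of its tissue, which left 15922 probe sets. Of the 97 members, 65 passed in shoots and 63 in roots, 61 in both tissues and 30 in neither. A few passed only through their highest group, namely AT1G77570 and AT5G37670 in shoots and HSFA1E, AT3G49770 and AT5G37670 in roots, so a call of that group as higher was in part fixed by the filter. A gene is called higher or lower at an adjusted p under 0.05 (limma, two-sided, Benjamini-Hochberg adjustment over all tested probe sets). Of the 67 members tested in at least 1 tissue, 62 were called in at least 1 of the 8 comparisons. The 5 never called were HSFA3, Hsp70b, AT1G54850, AT3G49770 and AT4G10130.

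Nitrogen starvation moved members in both directions, with shares near the background in shoots. In starved shoots 22 of 65 tested members were higher (33.8%) where 27.8% of all tested probe sets were, and 16 were lower (24.6%) where 26.3% of all were. In starved roots 31 of 63 were higher (49.2%) where 33.1% of all were, and 9 were lower (14.3%) where 21.8% of all were. The median change of tested members was 0.08 in shoots and 0.19 in roots (log2), beside 0.00 and 0.06 over all tested probe sets. The root counts depended on scaling, since centring each array on its median gave 20 higher and 14 lower. The share of all probe sets called after centring was not taken, so centred counts here and below have no background beside them. That centring moved the median change of all probe sets by no more than 0.0825 (log2) in any comparison.

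Overexpression of AtNIGT1.2 in starved plants called fewer members. In shoots 11 of 65 were higher (16.9%) where 30.6% of all tested probe sets were, and 16 were lower (24.6%) where 20.7% of all were. In roots 8 of 63 were higher (12.7%) where 21.4% of all were, and 7 were lower (11.1%) where 16.7% of all were. Starvation and overexpression were both measured against or with the same 3 starved wild-type arrays, so opposite signs in those comparisons are not independent.

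With induction of AtNIGT1.2-VP more members were lower than higher, as were more of all tested probe sets. In shoots 9 of 65 were higher (13.8%) where 23.8% of all tested probe sets were, and 21 were lower (32.3%) where 25.5% of all were. In roots 11 of 63 were higher (17.5%) where 15.6% of all were, and 18 were lower (28.6%) where 28.3% of all were, so the root shares lay near the background. Before induction, the AtNIGT1.2-VP line differed from sufficient wild type in few members. In shoots 3 were higher (4.6%) where 17.7% of all were, and 9 were lower (13.8%) where 15.8% of all were. In roots 8 were higher (12.7%) where 12.1% of all were, and 4 were lower (6.3%) where 6.1% of all were. Centring each array gave 2 higher and 5 lower in those roots. That comparison also differs in the time on the plates, and line and time cannot be told apart in it.

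**Figure D1:**
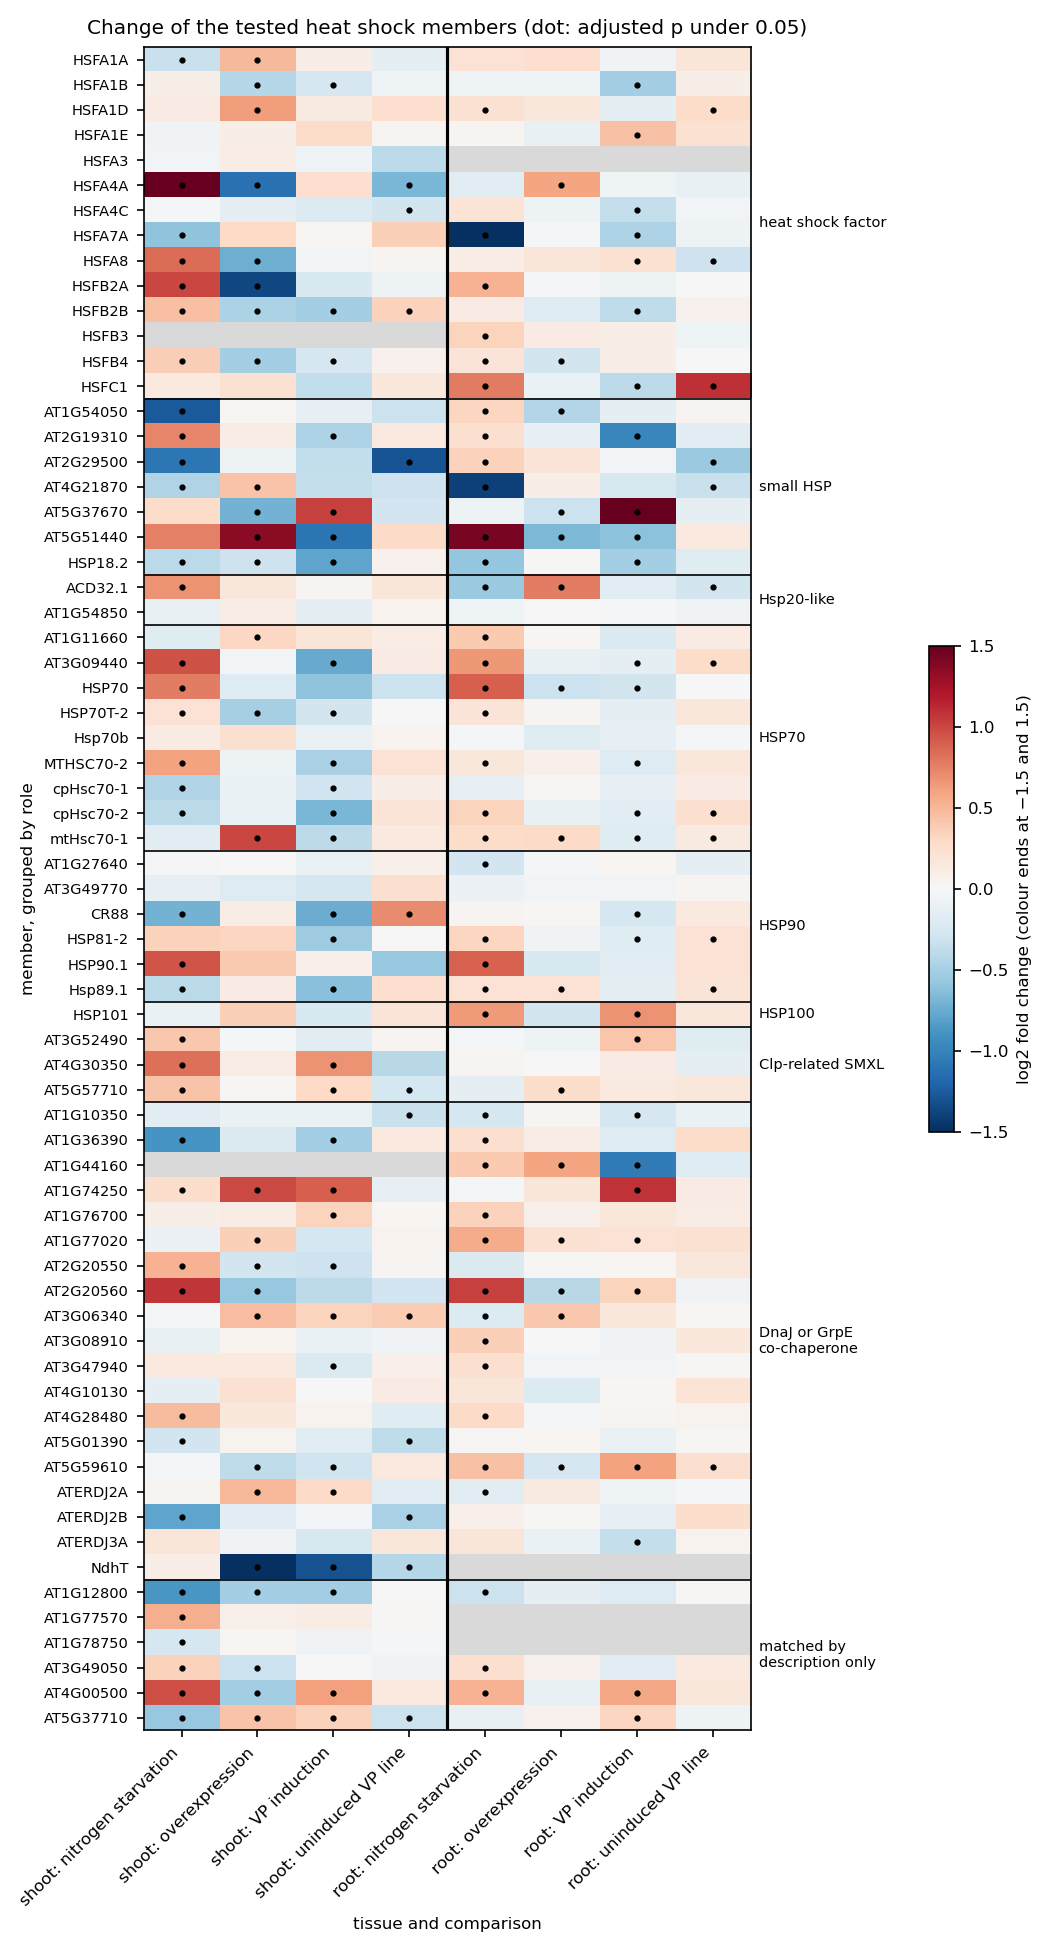
Log2 fold change of the 67 members tested in at least 1 tissue (rows, grouped by role) in the 4 comparisons of shoots and roots (columns). Red is higher and blue is lower in the first-named group, grey was not tested, a dot marks an adjusted p under 0.05, and the colour ends at 1.5, below the 3.36 of AT5G37670 in induced roots.

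Several heat shock factors were higher in starved shoots and lower there with overexpression. Both comparisons use the same 3 starved wild-type arrays, so these opposite signs are not independent. The share of all tested probe sets with this pair of calls was not taken. HSFA4A, a class A factor linked to oxidative stress responses, lay at 8.02, 7.59 and 7.70 in sufficient and at 9.31, 9.50 and 9.28 in starved wild-type shoots. The groups did not overlap, and the gene rose 3.02-fold (log2 1.60, SE 0.12, adjusted p = 4.39e-08). The 3 starved overexpressor shoots read 8.06, 8.50 and 8.19, below every starved wild-type array, so HSFA4A fell by 1.11 with overexpression (SE 0.12, adjusted p = 1.94e-06). The uninduced AtNIGT1.2-VP shoots read 7.22, 7.04 and 7.0, lower than sufficient wild type (log2 change -0.68, SE 0.12, adjusted p = 0.000655). Induced shoots read 7.24, 7.45 and 7.33, a change of 0.25 that was not called (adjusted p = 0.101). In roots the order was different, as HSFA4A was not called with starvation (-0.16, adjusted p = 0.121) and was higher with overexpression, at 8.20, 8.13 and 8.21 against 7.42, 7.63 and 7.71 (log2 0.59, SE 0.09, adjusted p = 1.44e-05).

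HSFB2A, a class B factor that represses target genes, followed a like course in shoots. Its level was 8.25, 8.06 and 8.08 in sufficient, 9.11, 9.10 and 9.20 in starved and 7.57, 7.77 and 7.95 in starved overexpressor shoots. It rose by 1.01 with starvation (2.01-fold, SE 0.11, adjusted p = 1.28e-06). With overexpression it fell by 1.37 (2.59-fold, SE 0.11, adjusted p = 5.06e-08), and all 3 overexpressor arrays lay below the sufficient wild type as well. In starved roots it was higher by 0.52 (adjusted p = 8.95e-06), and overexpression there gave -0.02 (adjusted p = 0.843). HSFA8 read 8.30, 7.82 and 8.30 in sufficient, 8.97, 9.01 and 8.96 in starved and 8.26, 8.26 and 8.19 in overexpressor shoots. It was higher by 0.84 with starvation (adjusted p = 1.88e-05) and lower by a log2 change of -0.74 with overexpression (adjusted p = 8.41e-05). HSFB2B and HSFB4 were also called higher in starved shoots (0.45 and 0.37) and lower with overexpression (-0.48 and -0.51).

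The class A1 factors, which start the heat response, moved by smaller amounts. HSFA1D read 7.34, 7.22 and 7.35 in overexpressor shoots against 6.63, 6.75 and 6.66 in starved wild type, a rise of 0.63 (SE 0.11, adjusted p = 0.000134). HSFA1A was higher there too, by 0.48 (adjusted p = 0.00041), whereas HSFA1B was lower (-0.42, adjusted p = 0.000344). HSFA1B was also lower after induction, in shoots (-0.25, adjusted p = 0.0163) and in roots, where mock arrays read 7.41, 7.25 and 7.18 and induced arrays 6.79, 6.83 and 6.70 (-0.51, SE 0.08, adjusted p = 2.73e-05). HSFA1E rose in induced roots, from 5.57, 5.47 and 5.39 to 6.02, 5.80 and 5.93 (log2 0.44, adjusted p = 0.000743), and it passed the filter in roots only through the induced group.

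In roots HSFA7A, a heat-inducible class A factor, had the lowest fold change of any member with starvation. Sufficient wild-type roots read 8.94, 9.03 and 9.06, and starved roots 7.11, 7.12 and 7.41. The groups were apart by more than 1 unit, and the gene fell 3.47-fold (log2 -1.79, SE 0.08, adjusted p = 6.23e-14). Starved overexpressor roots were as low, at 7.24, 7.11 and 7.18. Induction lowered it from 8.86, 9.0 and 8.95 to 8.49, 8.50 and 8.42 (-0.46, SE 0.08, adjusted p = 4.96e-05). In shoots HSFA7A was lower with starvation by a log2 change of -0.61 (adjusted p = 0.0127), with arrays of 6.27, 6.78 and 6.88 against 5.71, 6.17 and 6.23.

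HSFC1, the single class C factor, separated the wild type from the uninduced line in roots. Sufficient wild-type roots read 7.60, 7.37 and 7.44, and uninduced AtNIGT1.2-VP roots 8.76, 8.61 and 8.33, a difference of 1.10 (2.14-fold, SE 0.09, adjusted p = 5.12e-08). Starvation raised it to 8.24, 8.31 and 8.19 (log2 0.78, SE 0.09, adjusted p = 2.71e-07). Induction lowered it to 8.19, 8.11 and 8.22 (-0.39, SE 0.09, adjusted p = 0.00136), still above sufficient wild type. These comparisons share the sufficient or the mock arrays, so they are not independent. Of the 13 factors tested in each tissue, 5 were higher and 2 lower in starved shoots, and 5 higher and 1 lower in starved roots, where centring each array gave 2 higher and 2 lower. Overexpression called 2 higher and 6 lower in shoots and 1 each way in roots, and induction called 0 higher and 3 lower in shoots and 2 higher and 5 lower in roots. At an unadjusted p under 0.05, 1 factor was higher in induced shoots. Centring each array gave 3 higher and 1 lower with overexpression in roots and 5 lower with induction in shoots. Over all tested probe sets, 30.6% were higher and 20.7% lower with overexpression in shoots and 23.8% and 25.5% with induction. In roots these shares were 21.4% and 16.7% with overexpression and 15.6% and 28.3% with induction. With starvation they were 27.8% and 26.3% in shoots and 33.1% and 21.8% in roots.

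**Figure D2:**
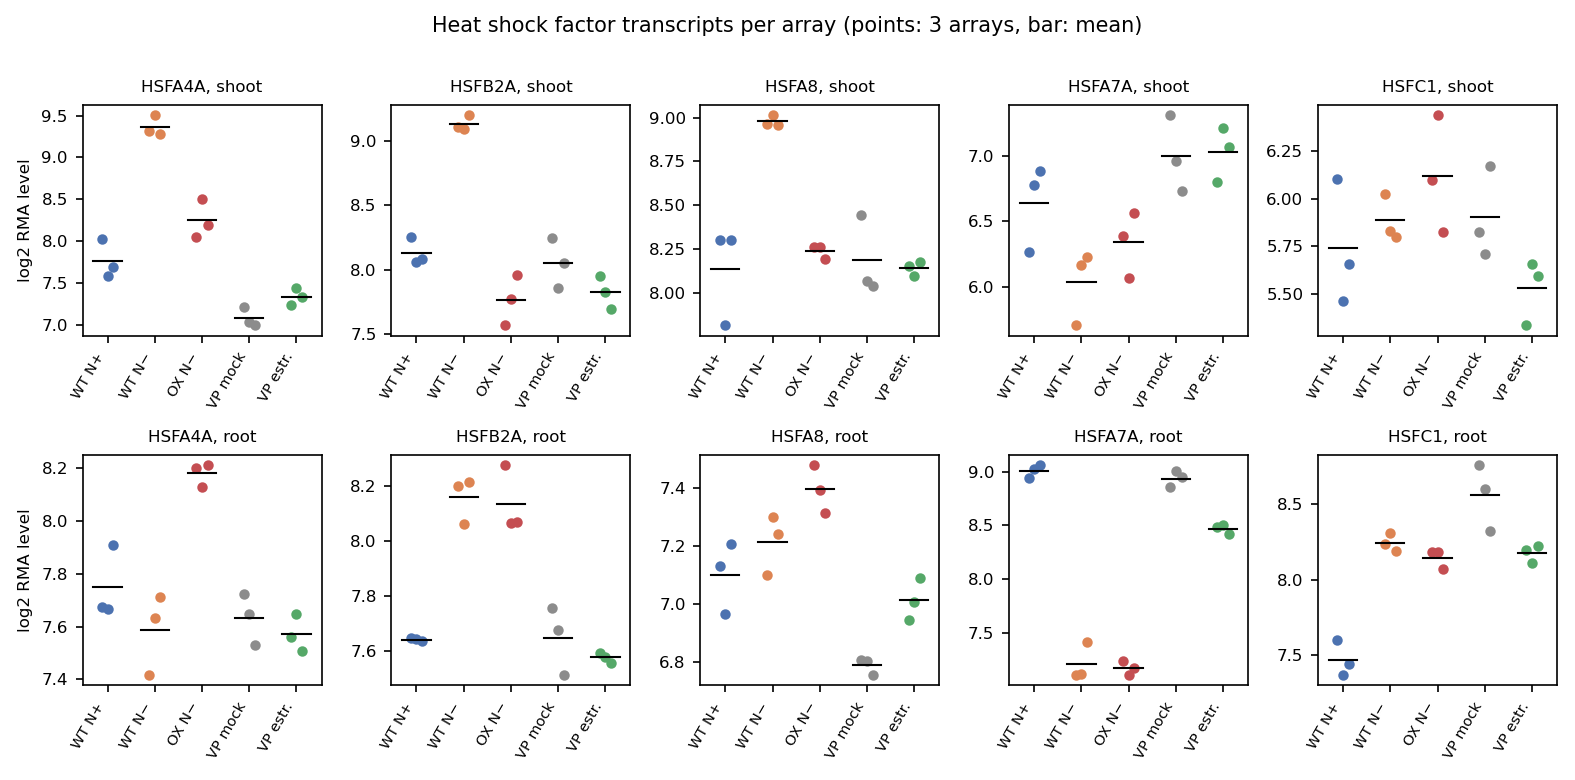
RMA log2 level of 5 heat shock factor transcripts in each array of shoots (upper row) and roots (lower row), with the vertical axis fitted to each panel. Points are the 3 arrays and bars their mean, for wild type with (WT N+) and without nitrogen (WT N−), the starved overexpressor (OX N−), and the AtNIGT1.2-VP line with mock or b-estradiole; HSFA4A, HSFB2A and HSFA8 stand highest in starved wild-type shoots, and HSFA7A falls from about 9 to about 7 in starved roots.

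Among the small heat shock proteins, AT5G37670 had the largest fold change of any tested member in the 8 comparisons. Its description likens it to a cytosolic class I protein of chestnut. Mock roots read 4.70, 4.78 and 4.79 and induced roots 7.91, 8.32 and 8.13, a 10.3-fold rise (log2 3.36, SE 0.11, adjusted p = 2.45e-16). The other root groups read between 4.49 and 5.17, so in roots it stood above the filter level only after induction and passed the filter only through that group, as in shoots. Induced shoots rose as well but were uneven, at 5.27, 6.47 and 5.75 against 4.95, 4.59 and 4.86 in mock (log2 1.03, SE 0.21, adjusted p = 0.000816), and without the second induced array the rise was 0.71. Overexpression went the other way, lowering shoots from 5.46, 5.40 and 5.25 to 4.52, 4.72 and 4.76 (-0.70, SE 0.21, adjusted p = 0.0111). In roots overexpression gave 4.52, 4.52 and 4.49 against 4.84, 4.88 and 4.77 (-0.32, SE 0.11, adjusted p = 0.0218), a call lost when the first starved array (adjusted p = 0.0542), the second (0.0603) or the third overexpressor array (0.0563) was left out. Both root groups of that comparison lay below the filter level of 5.33. Starvation itself left it without a call in both tissues.

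AT5G51440, described as like a mitochondrial small heat shock protein, was called with overexpression and induction in both tissues and with starvation in roots. Its shoot arrays read 5.41, 6.61 and 6.14 in sufficient, 6.95, 6.68 and 6.82 in starved and 7.78, 7.99 and 8.73 in overexpressor plants. The overexpressor was higher than starved wild type by 1.35 (2.55-fold, SE 0.31, adjusted p = 0.00191), and the starvation change of 0.76 was not called (adjusted p = 0.0502). In roots the gene rose with starvation, from 8.23, 8.16 and 7.80 to 9.44, 9.37 and 9.64 (2.67-fold, log2 1.42, SE 0.10, adjusted p = 1.8e-10). Overexpressor roots were lower than starved wild type, at 8.76, 8.77 and 8.90 (-0.67, SE 0.10, adjusted p = 2.11e-05). Induction lowered it in both tissues, to 4.84, 5.91 and 4.98 from 6.79, 6.03 and 6.21 in shoots (-1.10, SE 0.31, adjusted p = 0.00837) and by a log2 change of -0.61 in roots (SE 0.10, adjusted p = 4.53e-05).

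HSP18.2, a cytosolic class I protein widely used as a heat marker, was lower in 5 of the 8 comparisons and higher in none. Induced shoots read 5.60, 5.96 and 5.65 against 6.46, 6.52 and 6.58 in mock (-0.79, SE 0.12, adjusted p = 7.33e-05). Induced roots read 5.89, 5.86 and 6.04 against 6.58, 6.29 and 6.45 (-0.51, SE 0.10, adjusted p = 0.000247). The other lower calls were starvation in roots (-0.58) and shoots (-0.41) and overexpression in shoots (-0.31, adjusted p = 0.0425).

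AT2G29500 and AT1G54050 fell with starvation in shoots and were higher with it in roots. AT2G29500 read 5.91, 6.71 and 6.69 in sufficient and 5.72, 5.22 and 5.13 in starved shoots (-1.08, SE 0.23, adjusted p = 0.000879), and 7.70, 7.67 and 7.87 against 7.93, 8.07 and 8.28 in roots (0.35, adjusted p = 0.00211). It was also lower in the uninduced line than in sufficient wild type, in shoots (-1.30, SE 0.23, adjusted p = 0.000573) and in roots (-0.56, SE 0.09, adjusted p = 0.00013). That comparison shares the sufficient arrays with starvation, so the calls are not independent. AT1G54050 read 7.24, 7.67 and 7.54 in sufficient and 6.24, 6.13 and 6.31 in starved shoots (-1.26, SE 0.14, adjusted p = 2.1e-06), while its root change was 0.33 (adjusted p = 0.00953). AT4G21870, likened to a wheat protein, was lower in starved roots, at 5.55, 5.44 and 5.72 against 7.01, 6.90 and 7.0 (2.64-fold, -1.40, SE 0.10, adjusted p = 7.81e-11). AT2G19310 was lower in induced roots, at 6.87, 6.69 and 6.63 against 7.59, 7.73 and 7.79 (-0.97, SE 0.09, adjusted p = 5.45e-09).

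ACD32.1, a peroxisomal protein with an alpha-crystallin domain, rose in starved shoots from 11.43, 11.01 and 11.13 to 11.89, 11.87 and 11.85 (log2 0.68, SE 0.09, adjusted p = 7.51e-06). In starved roots it fell, from 6.72, 6.86 and 6.97 to 6.37, 6.14 and 6.37 (-0.56, SE 0.09, adjusted p = 3.17e-05). Overexpressor roots read 7.04, 7.15 and 6.99, higher than starved wild type by 0.77 (SE 0.09, adjusted p = 1.03e-06). Only 7 of the 15 small heat shock proteins and 2 of the 6 Hsp20-like genes passed the filter in each tissue. HSP17.4, HSP17.6II, HSP17.6A, HSP21, HSP23.6-MITO, ATHSP22.0, AT1G52560 and AT1G53540, mostly known as strongly heat-induced, were below it in both.

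Of the 9 tested HSP70 chaperones, 4 were higher and 2 lower in starved shoots, where 27.8% and 26.3% of all tested probe sets were. Centring each array gave 3 higher and 3 lower. HSP70 (AT3G12580), a heat-inducible cytosolic form, read 7.92, 8.58 and 8.31 in sufficient and 9.16, 9.14 and 8.79 in starved shoots (log2 0.76, SE 0.28, adjusted p = 0.027). AT3G09440, a cytosolic cognate, read 9.63, 9.68 and 9.51 against 10.87, 10.49 and 10.32 (log2 0.95, SE 0.15, adjusted p = 6.39e-05). Both rose. Hsp70b, another cytosolic form, gave 0.12 (adjusted p = 0.377). The plastid forms fell, cpHsc70-1 from 9.99, 10.12 and 10.09 to 9.62, 9.62 and 9.61 (-0.45, SE 0.08, adjusted p = 0.000173) and cpHsc70-2 from 9.90, 10.06 and 9.79 to 9.50, 9.54 and 9.51 (-0.40, SE 0.10, adjusted p = 0.00369). Of the mitochondrial forms, MTHSC70-2 rose from 8.53, 8.78 and 8.55 to 9.49, 9.20 and 8.98 (log2 0.61, SE 0.11, adjusted p = 0.000146), and mtHsc70-1 gave -0.18 (adjusted p = 0.106), a change called lower after centring (-0.24, adjusted p = 0.0385).

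In roots HSP70 rose with starvation from 10.18, 10.01 and 9.98 to 10.80, 11.07 and 10.99 (1.87-fold, log2 0.90, SE 0.08, adjusted p = 3.25e-09). Overexpressor roots read 10.44, 10.75 and 10.71, lower than starved wild type by a log2 change of -0.32 (SE 0.08, adjusted p = 0.00229) and above every sufficient array. AT3G09440 rose in starved roots by 0.66 (SE 0.05, adjusted p = 7.35e-10). In all, 7 of the 9 tested HSP70 genes were higher in starved roots and 0 were lower, also at an unadjusted p under 0.05 (limma). Over all tested probe sets 33.1% were higher and 21.8% lower there. Centring each array gave 5 higher and 1 lower, the lower one being cpHsc70-1 (-0.20, adjusted p = 0.00224).

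With induction some HSP70 members were lower in both tissues, and none of the 9 tested was higher by limma, also at an unadjusted p under 0.05. In shoots 6 of 9 were lower, with a median of -0.39 beside -0.03 over all tested probe sets, and in roots 5 of 9 were lower, with a median of -0.17 beside -0.07. Of all tested probe sets, 25.5% were lower in induced shoots and 28.3% in induced roots. Centring each array left 6 lower in shoots and 2 in roots, so the root count depended on scaling. AT3G09440 went from 9.80, 9.85 and 9.52 in mock to 8.93, 9.09 and 8.89 in induced shoots (-0.76, SE 0.15, adjusted p = 0.00071). cpHsc70-2 went from 10.08, 10.07 and 10.18 to 9.39, 9.45 and 9.45 (-0.68, SE 0.10, adjusted p = 5.86e-05). MTHSC70-2 and mtHsc70-1, the mitochondrial forms, were lower in shoots by log2 changes of -0.49 and -0.39 and in roots by -0.19 and -0.18. HSP70 itself was uneven in induced shoots, at 7.26, 7.96 and 6.78 against 8.02, 7.79 and 8.01, and was not called (-0.61, adjusted p = 0.0768).

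Overexpression called 2 HSP70 members higher and 1 lower in shoots and 1 each way in roots. Of all tested probe sets, 30.6% were higher and 20.7% lower in shoots, and 21.4% and 16.7% in roots. In shoots mtHsc70-1 read 10.59, 10.85 and 10.85 in the overexpressor and 9.91, 9.72 and 9.66 in starved wild type, a rise of 1.00 (SE 0.09, adjusted p = 1.54e-07). In roots it read 11.40, 11.30 and 11.33 against 11.09, 11.11 and 10.97 (log2 0.29, SE 0.05, adjusted p = 5.81e-05). AT1G11660, described as an HSP70 gene, was the other one higher in shoots, at 8.19, 8.32 and 8.16 against 7.91, 7.98 and 7.84 (log2 0.31, adjusted p = 0.0196). HSP70T-2, a truncated relative, was lower in overexpressor shoots, at 6.56, 6.52 and 6.42 against 7.03, 6.99 and 6.98 (-0.50, SE 0.08, adjusted p = 4.76e-05).

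Of the 6 HSP90 members, 1 was higher and 2 were lower in starved shoots, where 27.8% and 26.3% of all tested probe sets were. AT1G27640 and AT3G49770 are counted among them from their array description alone. HSP90.1, the heat-inducible cytosolic form, read 7.05, 7.71 and 7.51 in sufficient and 8.49, 8.37 and 8.24 in starved shoots (1.93-fold, log2 0.95, SE 0.21, adjusted p = 0.00133). HSP81-2, a constitutive cytosolic form, gave 0.34 there, which was not called (adjusted p = 0.0872). CR88, the plastid form needed for chloroplast development, read 10.18, 10.40 and 10.22 against 9.56, 9.51 and 9.59 (1.64-fold lower, -0.71, SE 0.09, adjusted p = 3.7e-06). Hsp89.1, an organellar form, was lower as well (-0.41, SE 0.10, adjusted p = 0.0025). In starved roots HSP90.1 was higher by 0.88 (SE 0.11, adjusted p = 8.09e-07), with arrays of 9.68, 9.80 and 10.04 against 9.26, 8.94 and 8.66, and HSP81-2 by 0.32 (adjusted p = 0.000573). CR88 gave 0.04 in roots (adjusted p = 0.653).

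CR88 also differed between the uninduced AtNIGT1.2-VP line and sufficient wild type in shoots, where line and time on the plates cannot be told apart. Mock arrays read 11.06, 10.94 and 10.93, above sufficient wild type by 0.71 (SE 0.09, adjusted p = 2.27e-05), and induced arrays 10.21, 10.28 and 10.22, lower than mock by a log2 change of -0.74 (SE 0.09, adjusted p = 4.14e-06). The induced arrays therefore lay at the level of sufficient wild type. Both comparisons use the mock arrays. Hsp89.1 and HSP81-2 fell in induced shoots too (-0.63 and -0.53), giving 3 of 6 HSP90 members lower and 0 higher there, and 2 lower and 0 higher in roots (1 lower after centring). None was higher with induction at an unadjusted p under 0.05 either. Of all tested probe sets, 23.8% were higher and 25.5% lower in induced shoots, and 15.6% and 28.3% in induced roots. Overexpression called 0 of 6 HSP90 members in shoots by limma, and 0 also had an unadjusted p under 0.05. Of all tested probe sets, 30.6% were higher and 20.7% lower there. In roots 1 was higher (Hsp89.1, 0.22, adjusted p = 0.00888), where 21.4% of all were.

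HSP101, the cytosolic disaggregase essential for acquired heat tolerance, was called in roots. It read 8.14, 7.77 and 7.78 in sufficient and 8.26, 8.65 and 8.71 in starved roots (log2 0.64, SE 0.12, adjusted p = 9.79e-05). Induced roots read 8.61, 8.92 and 8.70 against 8.12, 7.93 and 8.15 in mock, a rise of 0.67 (1.6-fold, SE 0.12, adjusted p = 6.98e-05). It rose with induction while HSP70 (-0.28, adjusted p = 0.00553) fell in the same roots. In shoots HSP101 gave no call in any comparison, for example -0.23 with induction (adjusted p = 0.225). With overexpression it changed by 0.35 in shoots and -0.27 in roots, neither called, though both had an unadjusted p under 0.05 (limma).

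**Figure D3:**
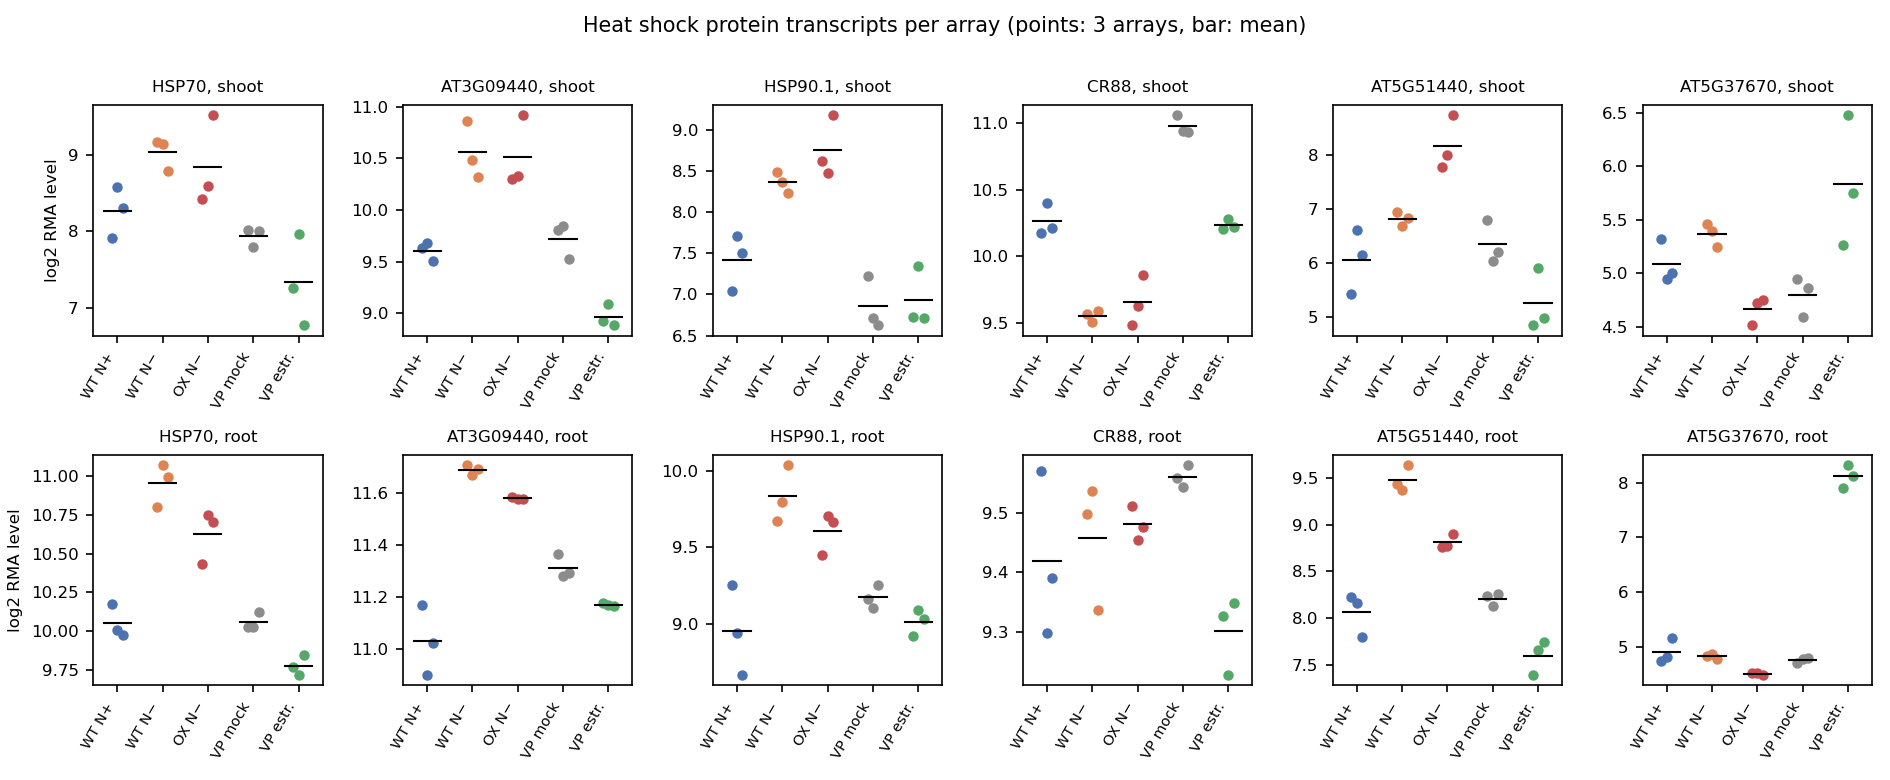
RMA log2 level of 6 heat shock protein transcripts in each array of shoots (upper row) and roots (lower row), with groups, points and bars as in the plot of the factors. HSP70, AT3G09440 and HSP90.1 stand higher in starved than in sufficient wild type in both tissues, CR88 stands lower in starved shoots, and AT5G37670 stands near 8 in induced roots and near 5 in the other root groups.

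The DnaJ and GrpE co-chaperones, which stimulate HSP70 or reload it, moved in both directions. Of 18 tested in each tissue, 4 were higher (22.2%) and 3 lower (16.7%) in starved shoots, where 27.8% and 26.3% of all tested probe sets were. In starved roots 9 were higher and 3 lower (7 and 4 after centring), where 33.1% and 21.8% of all were. AT2G20560, a DnaJ-type gene, rose in both, in shoots from 5.33, 5.85 and 5.64 to 7.11, 6.41 and 6.53 (2.1-fold, log2 1.07, SE 0.18, adjusted p = 0.000108) and in roots from 7.48, 7.32 and 7.39 to 8.33, 8.37 and 8.57 (log2 1.03, SE 0.10, adjusted p = 1.25e-08). It was lower with overexpression, in roots by a log2 change of -0.41 (adjusted p = 0.00195) and in shoots by -0.57 (adjusted p = 0.0153). The shoot call was lost without the first starved array (-0.36, adjusted p = 0.0939) or the first overexpressor array (-0.48, adjusted p = 0.0645). AT1G36390, a GrpE-like gene, was lower in starved shoots, at 7.08, 7.48 and 7.47 against 8.23, 8.27 and 8.17 (-0.88, SE 0.11, adjusted p = 6.35e-06), and in induced shoots (-0.51, adjusted p = 0.00142). ATERDJ2B, a DnaJ of the endoplasmic reticulum, was lower in starved shoots (-0.80, SE 0.09, adjusted p = 1.61e-06) and in the uninduced line (-0.49, adjusted p = 0.000656). Both comparisons use the sufficient arrays.

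AT1G74250, a DnaJ-type gene, was higher both with overexpression and with induction in shoots. Starved wild type read 6.89, 6.91 and 6.89 and the overexpressor 7.75, 7.84 and 8.06 (1.98-fold, log2 0.99, SE 0.10, adjusted p = 4.53e-07). Mock shoots read 6.69, 6.50 and 6.34 and induced shoots 7.35, 7.45 and 7.41 (log2 0.89, SE 0.10, adjusted p = 1.77e-06). Induced roots rose from 7.44, 7.55 and 7.45 to 8.47, 8.67 and 8.56 (log2 1.09, SE 0.09, adjusted p = 3.06e-09), whereas overexpressor roots gave 0.18 (adjusted p = 0.141).

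NdhT, a J-domain subunit of the chloroplast NDH complex that is no classical heat shock protein, was lower in shoots with overexpression and with induction. It read 6.22, 6.25 and 6.04 in overexpressor and 7.65, 7.83 and 7.86 in starved wild-type shoots (3.05-fold lower, -1.61, SE 0.15, adjusted p = 2.92e-07). Induced shoots read 5.47, 6.15 and 6.21 against 7.29, 7.32 and 7.13 in mock (-1.31, SE 0.15, adjusted p = 3.76e-06). In roots it was below the filter. AT1G44160 passed the filter in roots only, where overexpression raised it from 7.98, 7.88 and 8.21 to 8.63, 8.68 and 8.52 (log2 0.59, SE 0.09, adjusted p = 1.92e-05) and induction lowered it from 7.30, 7.57 and 7.43 to 6.37, 6.47 and 6.33 (2.06-fold, -1.04, SE 0.09, adjusted p = 3.23e-09).

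Members matched by wording were measured beside the chaperones, and several are no heat shock proteins. The 3 SMXL genes, Clp-like genes of the family of the karrikin signalling regulator SMAX1, were all higher in starved shoots (0.40 to 0.82), where 27.8% of all tested probe sets were. None was called in starved roots, where 33.1% of all were higher and 21.8% lower. Centring each array gave 1 of the 3 lower in those roots. Of the 14 matched by description only, 6 were tested in shoots and 4 in roots. AT4G00500, described as a calmodulin-binding heat shock protein, rose in starved shoots from 6.70, 6.62 and 6.65 to 7.79, 7.57 and 7.50 (log2 0.96, SE 0.10, adjusted p = 1.02e-06). It fell with overexpression there to 7.08, 7.0 and 7.22 (-0.52, SE 0.10, adjusted p = 0.000499) and rose with induction, by 0.61 in shoots (adjusted p = 0.000145) and 0.58 in roots (adjusted p = 1.6e-06). AT1G12800 was lower in starved shoots (-0.87, adjusted p = 7.12e-07).

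The overexpressor and the induced AtNIGT1.2-VP line share no array, so their calls were set side by side. In shoots 2 of 65 members were lower with overexpression and higher with induction, where 4.17% of all tested probe sets were. They were AT5G37670 and AT4G00500. In roots 3 of 63 did so, where 5.09% of all did, namely AT5G37670, AT2G20560 and AT5G59610. The reverse, higher with overexpression and lower with induction, held for 2 in shoots (AT5G51440 and mtHsc70-1) where 5.31% of all did, and for 2 in roots (AT1G44160 and mtHsc70-1) where 7.85% of all did. Neither pattern was more frequent among members than that background. Members higher in both comparisons numbered 4 in shoots (6.15%), where 10.1% of all tested probe sets were, and 1 in roots (1.59%), where 2.34% were. Members lower in both numbered 9 in shoots (13.8%), where 8.65% of all were, and 2 in roots (3.17%), where 5.34% were. AT5G37670 and mtHsc70-1 had opposite calls in both tissues, but AT5G37670 passed the filter only through the induced group, and its root call with overexpression was lost when single arrays were left out.

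**Figure D4:**
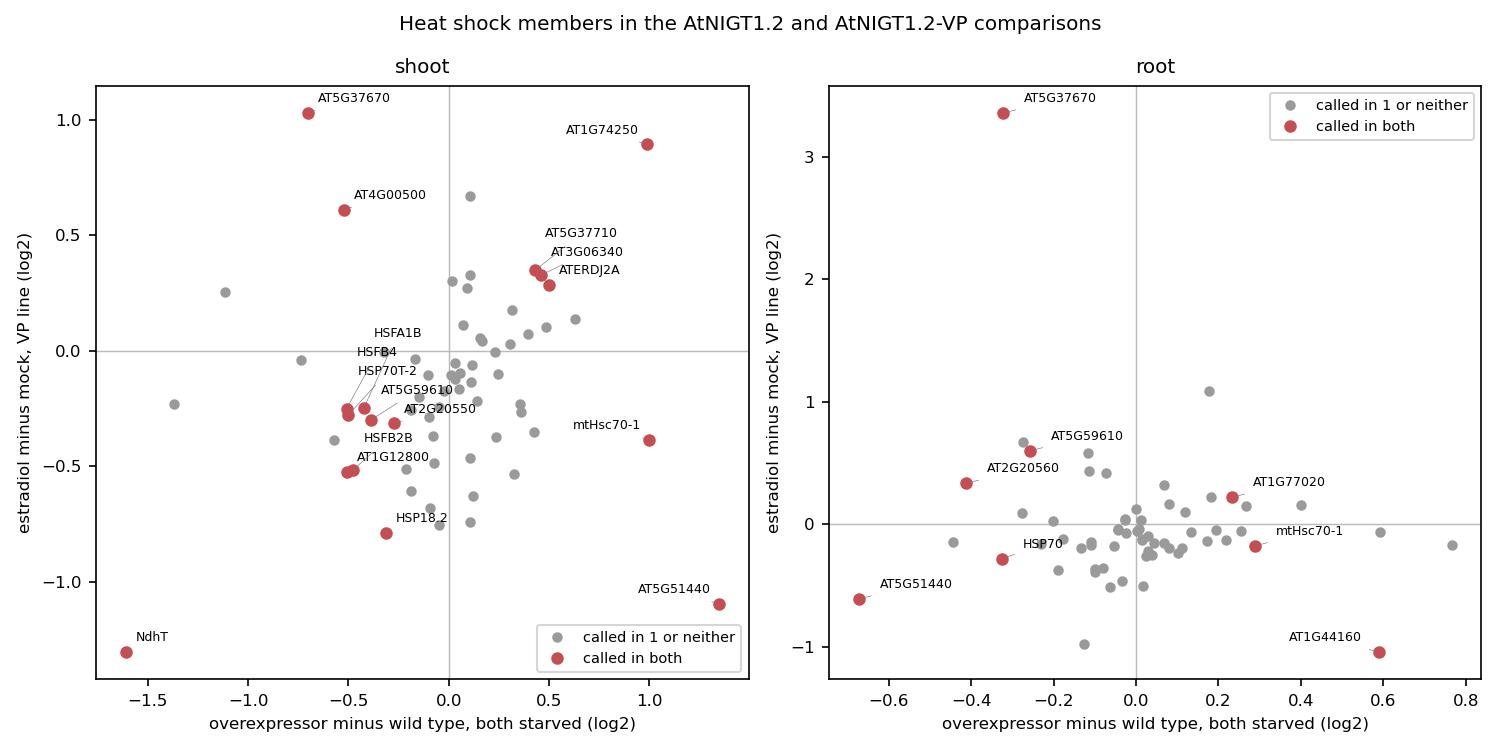
Log2 fold change of each tested member with AtNIGT1.2 overexpression (horizontal) and with AtNIGT1.2-VP induction (vertical), in shoots (65 members) and roots (63 members). Red points were called in both comparisons, and AT5G37670 stands at the upper left in both tissues.

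Partners of the heat response that are no members were counted from lists. Of 10 tested co-chaperones and heat-response partners in shoots, 4 were higher and 2 lower with starvation, 2 higher and 3 lower with overexpression, and 3 higher and 3 lower with induction. Of 11 in roots, these counts were 5 and 2, 0 and 4, and 2 and 4. At an unadjusted p under 0.05 (limma), 1 was higher with overexpression in roots. The shares over all tested probe sets for the same comparisons, higher and lower, were in shoots 27.8% and 26.3%, 30.6% and 20.7%, and 23.8% and 25.5%, and in roots 33.1% and 21.8%, 21.4% and 16.7%, and 15.6% and 28.3%. MBF1C, a heat-induced coactivator, was higher in starved shoots (0.66, adjusted p = 0.00184) and roots (0.79, adjusted p = 7.02e-06). It was lower with overexpression (-0.65 and -0.66) and with induction (-1.0 and -1.02) in shoots and roots. DREB2A, a drought and heat transcription factor, differed between tissues with starvation, at 1.12 in shoots (adjusted p = 4.27e-05) and -0.60 in roots (adjusted p = 2.39e-05), and that difference was not tested. DREB2A was lower in induced roots by a log2 change of -1.21 (adjusted p = 1.12e-09). GolS1, a galactinol synthase that is a target of heat shock factors, was lower in overexpressor roots (-1.33, adjusted p = 1.19e-12). Of the 6 tested genes of the endoplasmic reticulum stress list, 4 were higher and 0 lower in starved roots, and 1 was higher and 4 lower in induced roots. In shoots 2 were higher and 0 lower with starvation and 1 higher and 2 lower with induction. Overexpression gave 1 higher and 2 lower in shoots and 0 higher and 1 lower in roots. The shares over all tested probe sets listed above cover the same comparisons. At an unadjusted p under 0.05, 0 were lower with starvation in either tissue and 1 was higher with overexpression in roots. HSFA5, the other factor with a single-locus probe set, was higher after induction in shoots (0.26, adjusted p = 0.0206) and roots (0.50, adjusted p = 5.82e-05). Of 3 tested HSP70-family genes outside the members, AT4G16660 was higher in induced shoots (0.43, adjusted p = 0.0125) and lower in induced roots (-0.24, adjusted p = 0.0165). Hsp70-2 was higher in overexpressor roots (0.98, adjusted p = 8.02e-09). The 1 tested HSP90-family gene outside the members, SHD, was higher in overexpressor shoots (0.43, adjusted p = 0.00152).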

How the data were processed

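The deposited tables hold 22746 probe sets per tissue, with log2 expression values that the authors made with RMA, per the file headers. MAS5 is named in the submitters' processing notes, and the role of each is not given there. The series value table held the same values. The deposited tables also hold the authors' own fold values and p-values, used only as a count. In the authors' deposited table, 12 of the 97 members had a Benjamini-Hochberg value and 42 a q-value under 0.05 in starved shoots. Of the 65 tested here, 38 were called, and 11 of these also had that Benjamini-Hochberg value under 0.05. In overexpressor roots 2 members had a Benjamini-Hochberg value and 11 a q-value under 0.05, where 15 were called here.

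Per tissue, 15 arrays were fitted as 5 group means with limma 3.58.1 in R 4.3.3, with an intensity trend and all tested probe sets, and p-values were adjusted over 15922 probe sets. Tissues were never tested against each other. On simulated data with 200 changed probe sets of 15922, the fit found 61 to 89% of changes of 0.5 and 94 to 100% of changes of 1 (log2) over the 8 comparisons, with 1.27 to 8.43% false calls. Precision is limited by 3 arrays per group.

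Gene names came from RefSeq by locus. Members and lists were chosen with earlier results of these data known. Named members were, per tissue and comparison, up to 6 of the highest and 6 of the lowest fold changes among calls whose arrays did not overlap, besides factors, HSP90, HSP100 and opposite calls. Other members were named after their values were seen. Ranking members by level was left out, since probe sets differ in response. The arrays are labelled biological replicates, with no further source given. Alternatives were no filter, a 50th percentile filter, median centring, the 2 groups only, no trend, a replicate block, the series value table, the mean of a gene's probe sets, and leaving out each array.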

Additional observations from a re-analysis of the deposited data

Results flagged for a closer look

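Some members moved one way in every shoot array and the other way in every root array under the same comparison. These differences were not tested, because the tissues were normalised separately. With starvation, ACD32.1 changed by 0.68 in shoots and -0.56 in roots (log2), AT1G36390 by -0.88 and 0.24, and AT1G54050 by -1.26 and 0.33. AT2G29500 changed by -1.08 and 0.35, Hsp89.1 by -0.41 and 0.22, and cpHsc70-2 by -0.40 and 0.33. With overexpression, HSFA4A changed by -1.11 in shoots and 0.59 in roots, and AT5G51440 by 1.35 and -0.67. With induction, AT5G59610, a DnaJ-like gene, changed by -0.30 and 0.60. All were called in both tissues in the main fit. After centring each array, Hsp89.1 was not called in starved roots (0.14, adjusted p = 0.065, limma), and cpHsc70-2 was (0.25, adjusted p = 0.00333). Centred root values of the other genes are not given here.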

How the results depend on the processing

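Of 96 results for named members, 80 kept direction and call under every alternative run, and none reversed. The series value table and the mean of a gene's probe sets hold the same member values as the main fit, so they could not change a call. The 50th percentile filter tested only 72 of the 96 results. The other 16 lost the call under at least 1. The 50th percentile filter, which tests fewer members, gave 7 higher and 10 lower with overexpression in shoots, 1 higher in the uninduced line in shoots and 2 lower in roots, 5 lower in starved roots, and 1 each for the opposite patterns of overexpression and induction in shoots. Without a filter 14 were lower in starved roots. Centring each array gave 20 higher and 14 lower in starved roots and 2 higher in the uninduced roots. For the uninduced roots, fitting only the 2 groups gave 2 higher and no intensity trend gave 5. The cause was not tested. Leaving out each array in turn gave 1 to 3 higher and 5 to 9 lower in the uninduced shoots, and 3 to 13 higher and 1 to 4 lower in the uninduced roots. In the uninduced shoots, leaving out any 1 of the 3 mock arrays gave 1 higher, and leaving out mock array 2 or 3 or sufficient array 3 gave 5 lower. In the uninduced roots, 13 were higher without sufficient array 1 and 3 without sufficient array 2 or 3 or mock array 1 or 3. There, 2 were lower without mock array 1 and 1 without sufficient array 3. The results that lost a call in the uninduced line were HSFA1D, ACD32.1, HSP81-2, cpHsc70-2, AT5G59610, AT4G21870 and HSFA8 in roots and HSFB2B, NdhT and AT3G06340 in shoots. The others were AT1G76700, AT3G06340 and AT5G37710 with induction and AT2G20560 with overexpression in shoots, and AT5G37670 and AT5G57710 with overexpression in roots. In the other comparisons the ranges stayed within 1.5 times the counts given, for example 19 to 22 higher in starved shoots and 25 to 32 in starved roots. Deviations of same-numbered arrays from their group means correlated at -0.455 to 0.179. With 3 arrays per group this cannot decide whether the numbers pair the samples. With the replicate block the counts were 22 higher and 15 lower in starved shoots and 31 higher and 8 lower in starved roots, and no count moved by over 1.5 times. Low signal limits what could be called for members below the filter.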

Other observations

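Members below the filter were also fitted with all probe sets. Of the 32 in shoots, 1 was higher and 5 lower with starvation, 4 were higher and 0 lower with overexpression, 0 were called with induction by limma (1 lower at an unadjusted p under 0.05), and 0 were higher and 6 lower in the uninduced line. Of the 34 in roots, 3 were higher and 6 lower with starvation, 2 higher and 1 lower with overexpression, 3 higher and 2 lower with induction, and 1 higher and 3 lower in the uninduced line. The share of all probe sets called in the fit without the filter was not taken, so these counts have no background beside them. HSP17.6II read 5.08, 5.73 and 5.63 in sufficient wild-type shoots, and 4.61, 4.36 and 4.56 in starved wild-type shoots (-0.97, adjusted p = 3.89e-05 without the filter). HSP17.4 read 5.65, 5.46 and 5.51 against 4.96, 5.05 and 4.82 (-0.60, adjusted p = 0.000553). Both were lower in the uninduced line as well (-0.79 and -0.91), a comparison that shares the sufficient arrays. HSFA2, which prolongs the heat response, read 5.14, 4.98 and 4.98 in sufficient and 5.78, 5.76 and 5.77 in starved roots (0.73, adjusted p = 6.8e-08 without the filter). HSP23.6-MITO was lower in the same roots (-0.33, adjusted p = 8.72e-05 without the filter). For HSFA2, overexpressor roots read 5.29, 5.56 and 5.44, lower than starved wild type (-0.34, adjusted p = 0.0023 without the filter).

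The third overexpressor shoot array held the highest value of its group for 30 of 65 tested members (46.2%), where it did so for 34.4% of all tested probe sets. It read 9.51 for HSP70, against 8.42 and 8.59 in the other arrays of the group, 9.18 for HSP90.1, against 8.63 and 8.48, and 5.85 for HSFA2, against 4.98 and 5.08. Without this array AT5G51440 was higher with overexpression by 1.07 (adjusted p = 0.0142). The second induced shoot array was highest of its group for 32 members (49.2%), where it was for 34.4% of all tested probe sets.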
